A study of Mus musculus with 18 samples.

Results

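The regions described here are those assigned to 39 genes of glucose breakdown: the enzymes of glycolysis, of lactate formation, of the step from pyruvate to acetyl-CoA and of the citrate cycle, with 2 genes of hypoxia control, Hif1a and Egln3. Of the 53796 regions measured by ATAC-seq, 146 had their midpoint inside the body of one of these genes, or had one of them as the nearest protein-coding gene within 50 kb. The rule uses gene names and positions only. Regions were found at 36 of the 39 genes, and none at Aldoc, Eno2 and Pdk4. Of the 146, 71 lay inside the gene, 37 within 1 kb of a gene end and 38 between genes. Assignment by distance does not show on which gene a region acts. One region, chr15:98093165-98093666, lies in the bodies of both Pfkm and Senp1 and was given to Pfkm.

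Glycolysis turns glucose into pyruvate in a fixed chain of enzymes. Hexokinases trap glucose in the cell, phosphofructokinase commits it to breakdown, and the enzymes from glyceraldehyde-3-phosphate dehydrogenase to pyruvate kinase harvest ATP. Pyruvate then becomes lactate through lactate dehydrogenase A, or enters the citrate cycle through pyruvate dehydrogenase, which the kinases Pdk1 to Pdk4 switch off. Macrophages that sense microbial products are known to raise glycolysis and lactate release and to reroute the citrate cycle, and the transcription factor HIF-1α, encoded by Hif1a, is a known driver of that switch. HIF-1α binds DNA at short sites with the core ACGTG.

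The cells were bone marrow-derived macrophages of wild-type C57BL/6 mice aged 6 to 12 weeks, grown in M-CSF at 20 ng/mL, with replating on day 7. A first treatment of 4 h, with medium or a stimulus, was followed by a second of 4 h. CpG (100 nM) is DNA of a bacterial kind, sensed by TLR9 inside the cell, and LPS (1 ng/mL) is a bacterial cell wall component sensed by TLR4. PolyI:C (1 µg/mL) imitates viral RNA, and TNF (10 ng/mL) is an inflammatory cytokine. Groups are named by first and second treatment: MM (medium throughout), MC, ML, MP and MT (medium, then CpG, LPS, polyI:C or TNF), CL and CT (CpG, then LPS or TNF), and PL and PT (polyI:C, then LPS or TNF), with 2 libraries each. No group had a first stimulus followed by medium, so a lasting effect of the first stimulus and a changed response to the second cannot be told apart. These are cultures of a whole population, so a change in every cell and a change in the share of cells that respond cannot be told apart either.

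Values are log2 CPM, read counts of a region scaled to library size, on a log scale, so a difference of 1 is a doubling. Differences are given ± SE and were called at a limma adjusted p under 0.05. Libraries held 3141641 (MM replicate 2) to 5986835 (MT replicate 1) reads in regions. Both MP libraries agreed within counting error (chi-square per region 1.003) and may be 1 library under 2 labels, so they were counted as 1 sample here and wherever all libraries with a treatment are set against the rest. In every other group n was 2. Nothing in the labels names separate animals or cultures, so p-values measure the spread between these libraries only. The PT replicates differed most (chi-square per region 2.714; 1.069 to 1.598 in the other 7 groups), and differences with PT are followed by their values without PT replicate 1 and without PT replicate 2, in that order. All 12 macrophage marker genes had a region, with a mean level of 14.4 to 19.1 CPM. Markers of other cells had regions too, at 7 of 12 T and NK cell genes (15.6 to 20.0 CPM), 2 of 8 B cell genes (7.15 to 13), 7 of 10 neutrophil genes (11.3 to 18.2), 7 of 8 dendritic cell genes (14.3 to 17.6), 5 of 9 erythroid and progenitor genes (14.5 to 22.2) and 6 of 10 stromal and endothelial genes (15.1 to 18.9). The neutrophil regions held 11.3 and 11.7 CPM in MM and 17 to 18.2 in the libraries that received CpG. Without CpG they held 15.1 and 15.8 in ML and 14.9 and 15.9 in PL. The B cell regions held 7.46 and 7.73 in MM and 9.92 to 13 in the libraries that received polyI:C. No region was found at Cd3e, Cd3g and Cd8a of T cells, Cd79a and Cd79b of B cells or Elane of granulocytes. Gata1 of erythroid cells and Col1a1 of fibroblasts had none either. Other markers in the same lists did have a region, among them Cd3d, Cd4, Ms4a1, Ly6g, S100a8, Klf1, Pecam1 and Cdh5. PT replicate 2 had the lowest macrophage level (14.4) and the highest erythroid and progenitor level (22.2 CPM; 14.5 to 18.8 in the other libraries). The part of these levels in the results was not tested.

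The promoter sequences of these genes show what the members share in sequence. RefSeq (GRCm38.p6) gave 56 windows of 300 bases (250 before to 50 after a listed start) for 37 of the 39 genes. ACGTG, searched on both strands, was in 27 of the 56 windows (48.2%), against 6447 of 32851 windows of all genes (19.6%) and 20.9% of those of protein-coding genes. The member windows were also richer in G and C, with a median of 61.0% against 52.7%, and held a median of 20 CG pairs against 7, and ACGTG itself holds a CG pair. The NF-kB motif (GGG, any 3 bases, then TTCC) was in 5 of the 56 windows (8.93%; 5.56% of all), and the interferon response motif (GAAA, any 2 bases, then GAAA) in 0 of 56 (3.44% of all). The 5 stretches below are the 250 bases before a start, 5′ to 3′ on the strand of the gene, with ACGTG or its complement CACGT in capitals. They were picked by hand among genes that hold ACGTG and have results that follow. For each gene the window with the most matches was taken. Pfkp, Idh1, Idh2 and Eno1 also have results below, but none of their windows holds ACGTG and none is shown. Other forms of the HIF-1α core were not searched, so these windows may hold one. The start regions over the Ldha, Hk2 and Pgk1 stretches were called in at least 1 comparison. Those over the Hif1a and Pfkfb3 stretches were called in none, while distal regions of both genes were called.
Ldha, chr7:46845554-46845803, plus strand: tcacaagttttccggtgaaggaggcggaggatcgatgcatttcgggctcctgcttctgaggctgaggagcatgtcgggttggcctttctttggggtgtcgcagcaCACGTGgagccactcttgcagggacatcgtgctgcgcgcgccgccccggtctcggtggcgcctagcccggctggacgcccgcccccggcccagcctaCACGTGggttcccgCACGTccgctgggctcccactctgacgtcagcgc
Hk2, chr6:82774455-82774704, minus strand: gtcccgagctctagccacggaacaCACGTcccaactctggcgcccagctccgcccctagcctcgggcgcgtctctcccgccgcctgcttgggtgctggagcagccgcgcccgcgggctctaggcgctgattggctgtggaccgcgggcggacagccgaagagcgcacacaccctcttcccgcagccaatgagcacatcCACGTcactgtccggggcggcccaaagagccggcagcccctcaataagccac
Hif1a, chr12:73907617-73907866, plus strand: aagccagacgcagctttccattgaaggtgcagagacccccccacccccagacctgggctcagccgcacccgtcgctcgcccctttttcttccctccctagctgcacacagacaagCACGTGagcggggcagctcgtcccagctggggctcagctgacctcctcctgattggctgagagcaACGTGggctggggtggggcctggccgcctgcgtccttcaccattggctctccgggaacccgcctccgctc
Pgk1, chrX:106186850-106187099, plus strand: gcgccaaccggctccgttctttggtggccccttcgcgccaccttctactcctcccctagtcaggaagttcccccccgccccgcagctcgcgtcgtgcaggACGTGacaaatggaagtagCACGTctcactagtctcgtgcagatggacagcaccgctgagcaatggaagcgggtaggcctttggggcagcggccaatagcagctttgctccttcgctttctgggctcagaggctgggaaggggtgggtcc
Pfkfb3 (inner start), chr2:11502091-11502340, minus strand: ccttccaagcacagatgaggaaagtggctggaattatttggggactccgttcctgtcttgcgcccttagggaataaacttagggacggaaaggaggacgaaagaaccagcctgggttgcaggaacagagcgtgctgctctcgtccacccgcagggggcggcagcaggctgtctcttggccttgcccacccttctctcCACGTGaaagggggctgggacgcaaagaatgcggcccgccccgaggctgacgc
The Ldha stretch holds the palindrome CACGTG at 2 places, which matches on both strands, and CACGT at a further place. Hif1a and Pfkfb3 hold 1 CACGTG each. A match is a description of the letters, not of binding. Among the member start regions that overlap a window, 4 of 18 with ACGTG and 4 of 16 without it were lower in PL than in ML.

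Most members were most open at their start. A region within 1 kb of a listed start is called a start region here (for Idh3a and Sdhc, with no listed start, within 1 kb of a gene end), and all others within 50 kb are called distal, inside the gene or outside it. There were 52 start regions at 35 genes and 94 distal regions, so 35.6% were start regions, against 23.8% of all regions measured. At 31 of 36 genes the most open region was a start region. Median levels were 5.13 log2 CPM for the start regions (4.5 for all 12780 start regions) and 3.71 for the distal ones (3.47 for all 36041). Distal regions varied more. The median range between the lowest and highest of the 9 group means was 0.84 for distal and 0.53 for start regions, close to the 0.92 and 0.59 of all regions. Pdhb, a subunit of pyruvate dehydrogenase, had the most open start (6.92), and its libraries stayed between 6.68 and 7.13.

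**Figure D1:**
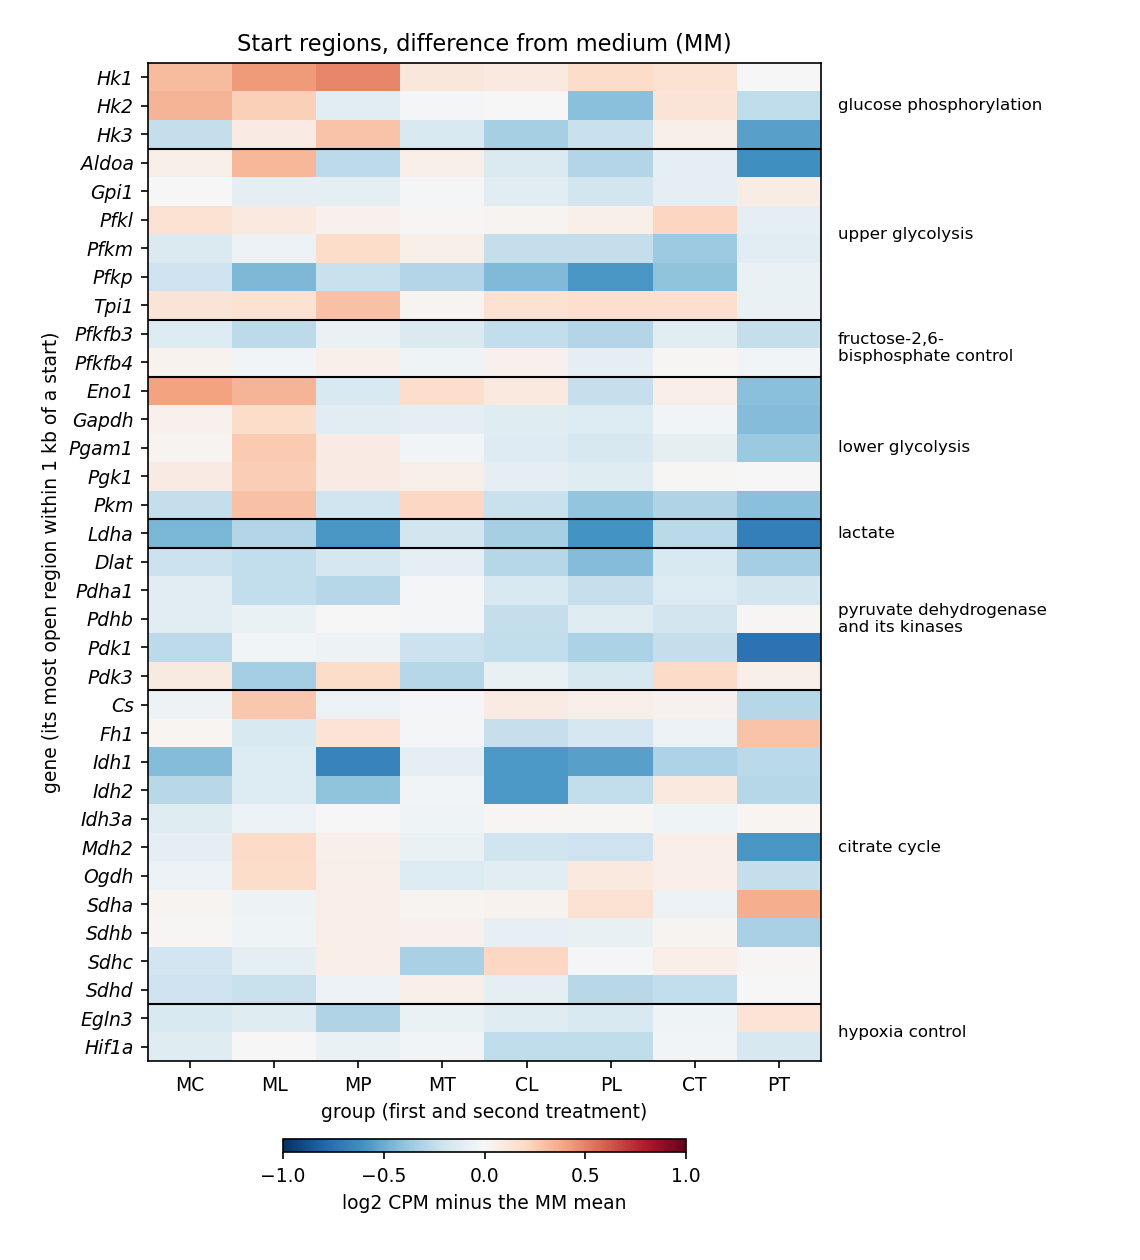
Difference of each group mean from the MM mean (color, log2 CPM) for the most open start region of 35 genes (rows, ordered by role) in 8 groups (columns). Differences run from -0.73 to 0.49. Of the 35 starts, 28 lie below MM in PL, 26 in PT, 25 in CL and 20 in CT. The same count over all start regions was not made, but their library medians were 4.56 and 4.61 in MM and 4.43 and 4.41 in PL.

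Each single stimulus changed a share of the members near or below that of all regions. CpG changed 29 of 146 (19 higher, 10 lower), where 26.0% of all regions were called. LPS changed 18 (12 higher, 6 lower; 24.5% of all), polyI:C 25 (18 higher, 7 lower; 22.5%) and TNF 5 (4 higher, 1 lower; 6.36%). In all, 46 of 146 were called with at least 1 of the 4 stimuli, against 42.7% of all regions: 10 of 52 start regions (25.0% of all start regions) and 36 of 94 distal ones (47.6% of all distal). Start regions gave few of these calls: 5 higher and 2 lower with CpG (4.92% and 5.98% of all start regions), 1 and 2 with LPS (6.05% and 10.4%), 1 and 3 with polyI:C (5.37% and 3.85%), and 0 of 52 with TNF (1.24% and 0.290%), where 1 had an unadjusted p under 0.05. All called members had both libraries of 1 group above both of the other. Members that were not called could be separated too, such as Aldoa chr7:126803158-126803659 with TNF (-0.49 ± 0.21, limma adjusted p = 0.194). With 2 libraries a group, separation therefore adds no support to a call. The calls fell on 16 genes, and 4 regions rose with all 4 stimuli: 2 inside Pfkfb3, 1 inside Hk2 and 1 inside Pfkp. Leaving out any 1 library changed the CpG count to 17 or 18, the LPS count to 12 to 16, the polyI:C count to 20 to 28 and the TNF count to 4 or 5.

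**Figure D2:**
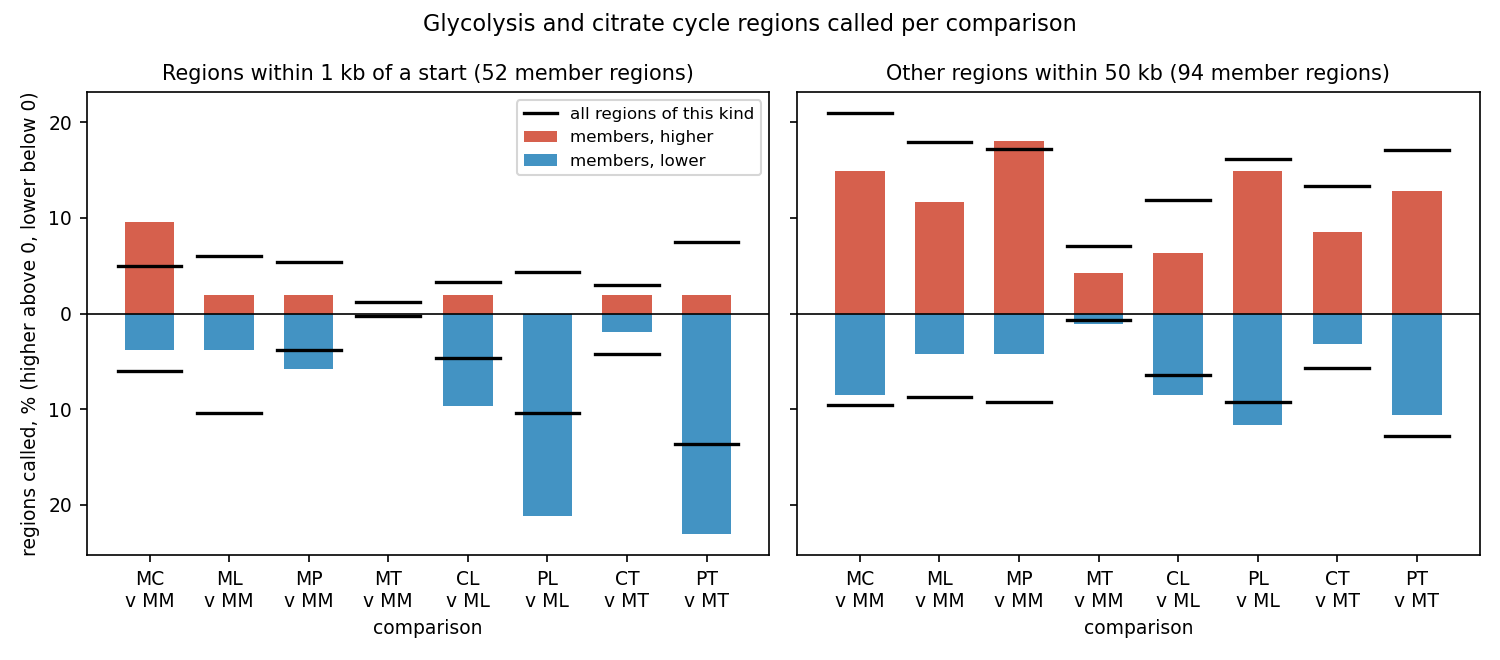
Share of member regions called higher (red, above 0) or lower (blue, below 0) in 8 comparisons, at starts (left, 52 regions) and elsewhere (right, 94 regions); black lines give the same shares over all regions of that kind. Member starts were lower in PL (11 of 52 regions) and PT (12 of 52 regions) in larger number than in the other 6 comparisons. Of all start regions 10.4% were lower in PL and 13.7% in PT, against 0.290% to 10.4% in the other 6 comparisons.

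The 2 widest ranges between group means among the members, 3.91 and 3.45 log2, were inside Pfkfb3, which encodes the enzyme that makes fructose-2,6-bisphosphate, the strongest activator of phosphofructokinase. The region with a range of 3.45, chr2:11523815-11524316, lies inside the gene, 29864 bases after its outer start and 21975 bases before its inner one. It was nearly closed in MM, with 6 and 9 reads (0.74 and 1.78 log2 CPM). Levels were 4.28 and 4.79 in MC, 4.08 and 4.46 in ML, 3.56 and 3.43 in MP, and 2.93 and 2.49 in MT. Every stimulated library lay above both MM libraries, and the rises were 3.28 ± 0.24 with CpG, 3.01 ± 0.24 with LPS, 2.24 ± 0.29 with polyI:C and 1.45 ± 0.24 with TNF (limma adjusted p from 4.95e-13 to 5.76e-05). The TNF rise was 0.93 without MM replicate 1 and 0.90 with quantile normalization, and was called in both. CpG exceeded polyI:C by 1.04 ± 0.29 (0.78 without MC replicate 2, adjusted p = 0.171; call also lost without a variance trend) and TNF by 1.82 ± 0.24, and LPS exceeded TNF by 1.56 ± 0.24. With 2 stimuli the levels were 4.73 and 4.69 in CL, 4.25 and 4.53 in PL, 4.50 and 4.61 in CT, and 3.81 and 3.76 in PT. CpG before TNF added 1.84 ± 0.24 to TNF alone and polyI:C before TNF added 1.07 ± 0.24 (1.05 and 1.10), whereas neither comparison with LPS alone was called.

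The neighbouring Pfkfb3 region, chr2:11524667-11525168, with the range of 3.91, lies 22827 bases before the inner start and followed another pattern. It had 4 and 5 reads in MM (0.40 and 1.13 log2 CPM). MC stood at 3.79 and 3.93, ML at 2.01 and 2.24, MP at -0.03 and 1.09, and MT at 1.19 and 1.08. CpG raised it by 3.10 ± 0.32 and LPS by 1.36 ± 0.32, and polyI:C and TNF libraries stayed within or next to the range of MM. The LPS rise was 0.64 with quantile normalization (adjusted p = 0.17) and 1.00 without MM replicate 1 (adjusted p = 0.068), so that call was lost in both. After CpG the region was open with either second stimulus, at 4.41 and 4.47 in CL and 3.48 and 3.88 in CT, which was 2.32 ± 0.32 above ML and 2.54 ± 0.32 above MT. After polyI:C it was open with LPS (3.37 and 3.86 in PL; 1.49 ± 0.32 above ML) but in PT its libraries held 0.86 and 2.27, and CT was 2.11 ± 0.32 above PT (1.41 and 2.82).

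Another Pfkfb3 region, chr2:11530036-11530537, rose with each stimulus, from 3.63 and 3.61 in MM to between 4.27 and 4.65 in the libraries of the 4 stimuli. The rises were 0.89 ± 0.16 with CpG, 0.90 ± 0.16 with LPS, 0.66 ± 0.20 with polyI:C and 0.93 ± 0.16 with TNF. Nearer the inner start, chr2:11496479-11496980 went the other way, from 5.65 and 5.27 in MM to 4.74 and 4.80 in MC and 4.55 and 4.79 in ML (-0.68 ± 0.14 and -0.79 ± 0.14). None of the 4 start regions of Pfkfb3 was called in the comparisons of single or paired stimuli, and the inner start held 4.37 to 5.01 log2 CPM in all 18 libraries. Pfkfb4, the related enzyme gene, had 9 regions of which 0 were called with a single stimulus, against 42.7% of all regions. Its start held 6.51 to 6.75 log2 CPM in all 18 libraries and was not called. Of its distal regions chr9:109023240-109023741 was lower in CL (4.66 and 4.64) and PL (4.66 and 4.66) than in ML (5.19 and 5.37), at -0.63 ± 0.14 and -0.62 ± 0.14.

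**Figure D3:**
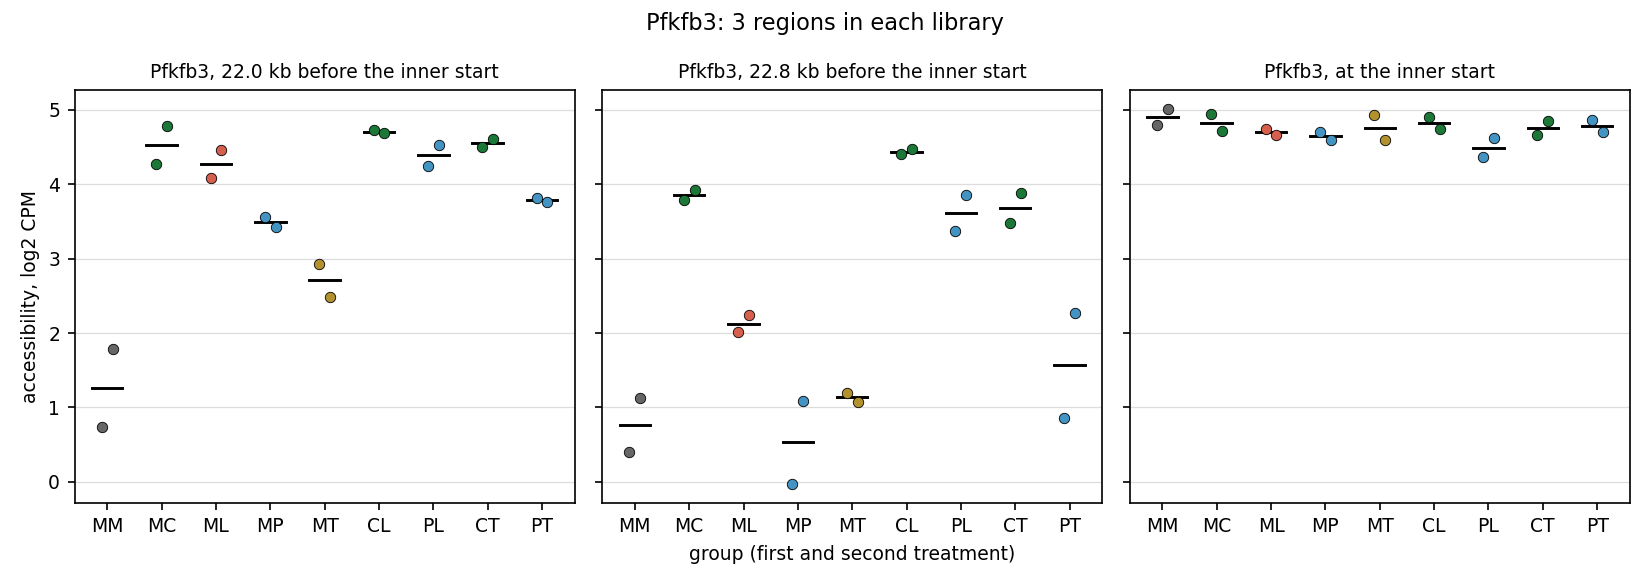
Accessibility (log2 CPM) of 3 Pfkfb3 regions in each library of the 9 groups; points are libraries and lines group means. The first region is above MM in every stimulated library, the second is highest after CpG, and the inner start stays between 4.37 and 5.01.

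Hexokinases phosphorylate glucose in the first step, and Hk2 is their inducible form. Of its 15 regions 9 were called with at least 1 single stimulus, against 42.7% of all regions. The region inside the gene 21183 bases after the start, chr6:82753021-82753522, held 2.21 and 1.49 in MM, 4.04 and 3.84 in MC, 3.36 and 3.67 in ML, 4.35 and 4.48 in MP, and 3.02 and 2.93 in MT. Every library with a single stimulus lay above both MM libraries, with rises of 2.09 ± 0.22, 1.67 ± 0.22, 2.56 ± 0.27 and 1.13 ± 0.22 (limma adjusted p of 0.00066 or less). Without MM replicate 2 the TNF rise was 0.76 (adjusted p = 0.084), and with quantile normalization 0.73 (adjusted p = 0.0452). PolyI:C exceeded TNF by 1.44 ± 0.27. With LPS as second stimulus, the libraries held 3.74 and 3.74 in CL and 3.79 and 3.74 in PL, and neither group was called against ML.

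The Hk2 region 2633 bases before the start, chr6:82776837-82777338, separated the stimuli more sharply. It held 0.88 and 0.90 in MM, 2.36 and 2.11 in MC, 0.96 and 1.94 in ML, 3.35 and 3.54 in MP, and 0.70 and 0.16 in MT. PolyI:C raised it by 2.55 ± 0.39 and CpG by 1.35 ± 0.32 (0.45 with quantile normalization, adjusted p = 0.37), and the libraries of TNF were the lowest. It was open in every library that had received polyI:C at any time (3.03 to 3.54). Against LPS alone, PL was 1.89 ± 0.32 higher (3.37 and 3.30) and CL 1.01 ± 0.32 (2.38 and 2.54). Against TNF alone, PT was 2.72 ± 0.32 higher (2.60 and 2.84), with its libraries at 3.26 and 3.03, and CT 1.78 ± 0.32 (1.08 with quantile normalization), with its libraries at 1.95 and 2.47. The CL call was lost with quantile normalization (0.74, adjusted p = 0.13) and without ML replicate 1 (0.52), CL replicate 1 (1.09) or CL replicate 2 (0.93).

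Close to the Hk2 start, CpG stood apart. The region 988 bases after the start, chr6:82773216-82773717, held 4.51 and 4.45 in MM and 5.34 and 5.29 in MC (0.83 ± 0.16). CL had 5.70 and 5.43 and CT 5.32 and 5.45, while PL had 4.66 and 4.46 and PT 4.64 and 4.27. Every library that received CpG lay above every library that did not, and CL exceeded PL by 1.01 ± 0.16 and CT exceeded PT by 0.93 ± 0.16 (1.12 and 0.74). The start itself, chr6:82774302-82774803, the most open Hk2 region, rose slightly with CpG (6.39 and 6.37 against 6.06 and 6.02; 0.34 ± 0.12), a call lost when any 1 library was left out and without a variance trend. It was lower in PL (5.70 and 5.54) than in ML (6.31 and 6.24), by -0.66 ± 0.12.

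Hk1, the constitutive hexokinase gene, had 8 regions. Its start, chr10:62340050-62340551, held 5.91 and 6.02 in MM and rose to between 6.24 and 6.51 with CpG, LPS and polyI:C (0.32 ± 0.12, 0.43 ± 0.12 and 0.49 ± 0.15). It was the only member start region called higher with 3 of the 4 stimuli. All 3 calls were lost without MM replicate 1 (0.27, 0.37 and 0.44) and without a variance trend, the CpG call also without any other 1 of its libraries (0.28 to 0.38), with quantile normalization (0.31) and with the shift to one median (0.30), and the LPS call without ML replicate 1 (0.38). Inside the gene, chr10:62323721-62324222 rose with polyI:C from 4.41 and 4.49 to 5.42 and 5.46 (0.99 ± 0.20) and with LPS by 0.64 ± 0.16. Hk3, a hexokinase gene of myeloid cells, had 1 called region of 3, chr13:55022565-55023066, higher with polyI:C (4.03 and 3.85 in MM; 4.87 and 4.87 in MP; 0.93 ± 0.24).

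**Figure D4:**
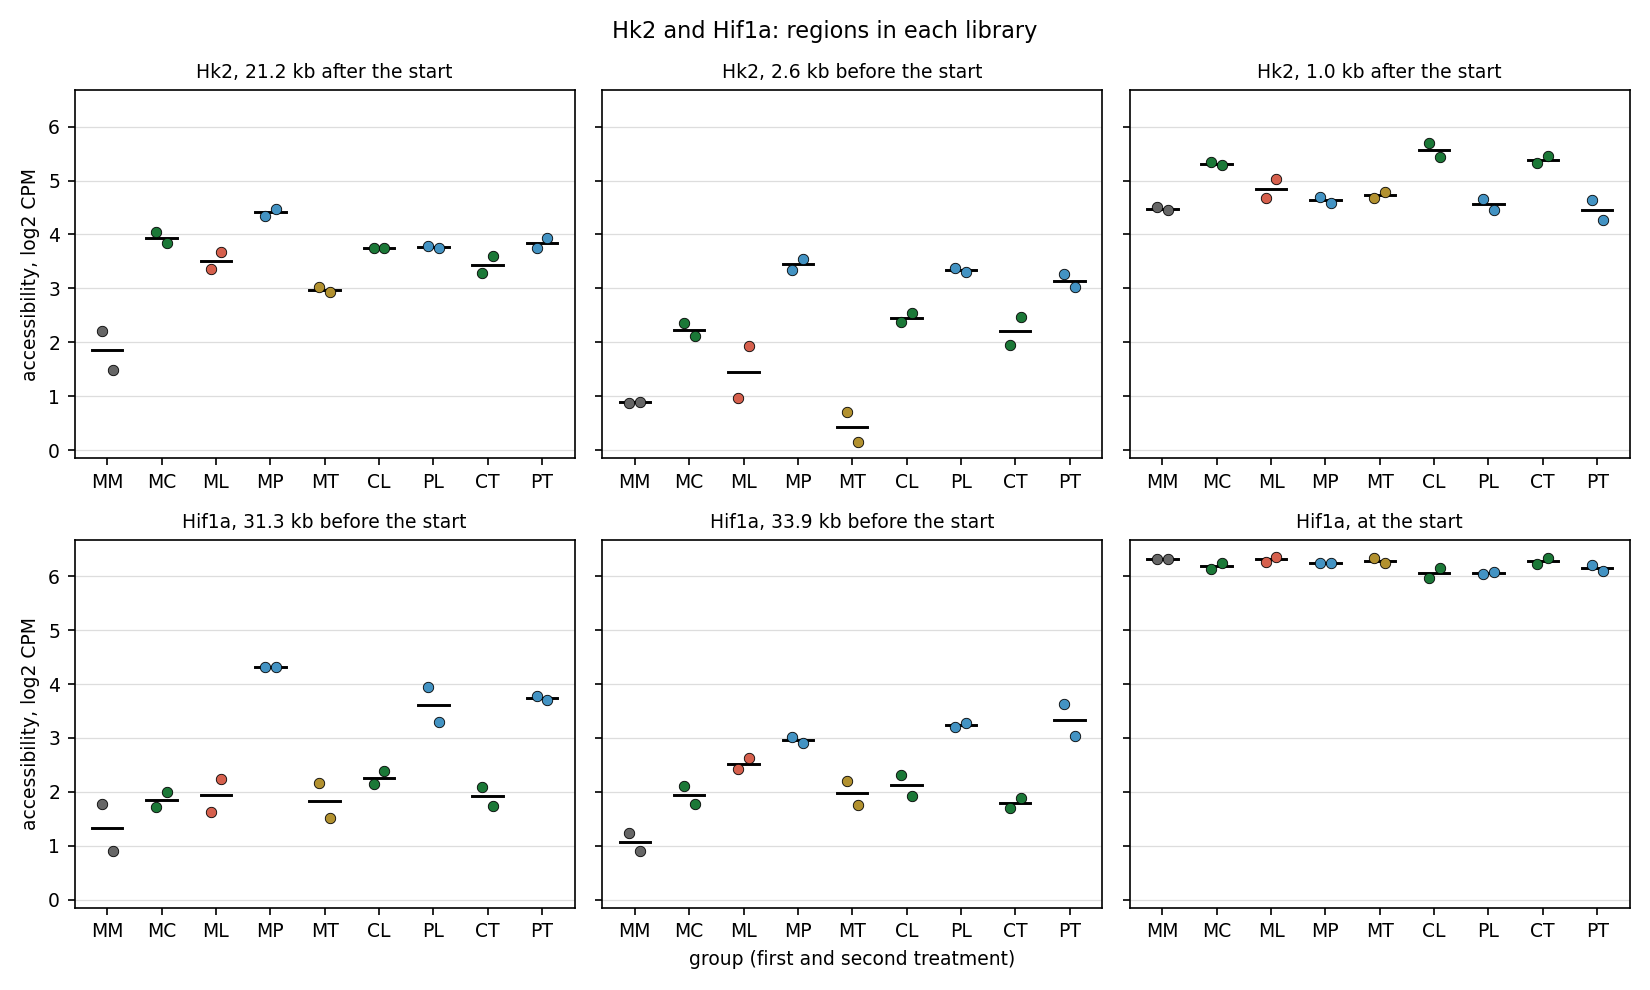
Accessibility (log2 CPM) of 3 Hk2 regions (top) and 3 Hif1a regions (bottom) in each library of the 9 groups; points are libraries and lines group means. The Hk2 region before the start and the Hif1a region 31 kb before the start are highest in MP, PL and PT, and the Hk2 region 1.0 kb after the start is highest in MC, CL and CT.

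In upper glycolysis, Pfkp (platelet-type phosphofructokinase) had the most regions, 12, and most of the calls. With at least 1 single stimulus 5 of the 12 were called, against 42.7% of all regions. The region chr13:6628628-6629129, inside the gene 19893 bases after the start, held 1.53 and 1.49 in MM and 2.46 to 2.88 in the libraries of the single stimuli. Its rises were 1.27 ± 0.24 with CpG, 1.14 ± 0.24 with LPS, 1.06 ± 0.30 with polyI:C and 1.30 ± 0.24 with TNF. With quantile normalization they were 0.65, 0.62, 0.50 and 0.77 and all 4 calls were lost. The region 3938 bases before the start, chr13:6652459-6652960, held 1.77 and 1.78 in MM, 3.42 and 2.75 in MC, 2.08 and 2.17 in MP, 1.63 and 1.64 in ML, and 1.30 and 0.90 in MT. It was higher in every library with a first stimulus (2.98 to 3.56) than in ML or MT. These differences were 1.58 ± 0.27 for CL, 1.72 ± 0.27 for PL, 1.88 ± 0.27 for CT and 2.33 ± 0.27 for PT (2.46 and 2.2).

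Another Pfkp region, chr13:6633442-6633943, moved in opposite directions with different stimuli. It held 4.09 and 4.30 in MM, fell to 3.36 and 3.49 in MC and 3.31 and 3.36 in ML, and rose to 5.08 and 5.10 in MP (-0.77 ± 0.18, -0.86 ± 0.18 and 0.89 ± 0.22). PolyI:C exceeded LPS there by 1.75 log2, written as a difference of LPS minus polyI:C of -1.75 ± 0.22 (adjusted p = 7.76e-07). PT (4.72 and 4.79) was above CT (3.58 and 3.54), at -1.20 ± 0.18 for CT minus PT (-1.23 and -1.16).

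Other genes of the upper pathway had fewer called regions. Aldoa, an aldolase gene, had a start region, chr7:126799045-126799546, at 6.05 and 6.05 in MM and 6.31 and 6.45 in ML. Against ML it was lower in CL (5.91 and 5.90; -0.48 ± 0.14) and PL (5.70 and 5.81; -0.63 ± 0.14), and against MT (6.22 and 6.00) in PT (5.69 and 5.18; -0.68 ± 0.14, then -0.93 and -0.42, both called). The CL call was lost without any 1 of its 4 libraries (-0.41 to -0.55), with quantile normalization (-0.34) and without a variance trend. The Pfkl region 5855 bases before the start, chr10:78015412-78015913, held 2.55 and 2.99 in MP and 3.95 and 4.03 in ML (LPS minus polyI:C 1.22 ± 0.27). The starts of Gpi1, Pfkl, Pfkm and Tpi1 were not called with any single stimulus.

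At Hif1a the start was open and steady while distal regions moved. The start region, chr12:73907564-73908065, held 5.97 to 6.36 log2 CPM in all 18 libraries and was not called in any comparison made here. The region chr12:73876283-73876784, 31334 bases before the start, held 1.77 and 0.90 in MM, 1.72 and 1.99 in MC, 1.63 and 2.24 in ML, 2.16 and 1.52 in MT, and 4.32 and 4.32 in MP. Both MP libraries lay above those of every other group with a single stimulus, and the rise was 2.98 ± 0.38 (limma adjusted p = 2.17e-07). It exceeded CpG, LPS and TNF by 2.39 to 2.48 log2 (SE 0.38). The libraries that had polyI:C first held 3.94 and 3.30 (PL) and 3.77 and 3.70 (PT), above ML by 1.69 ± 0.31 and above MT by 1.89 ± 0.31 (1.86 and 1.93), and those with CpG first 1.74 to 2.38.

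A second distal Hif1a region, chr12:73873764-73874265, 33853 bases before the start, held 1.24 and 0.90 in MM, 2.42 and 2.62 in ML, and 3.01 and 2.91 in MP (1.45 ± 0.29 with LPS and 1.89 ± 0.36 with polyI:C). With quantile normalization the LPS rise was 0.78 (adjusted p = 0.065) and the polyI:C rise 1.17 (adjusted p = 0.0234). Its rise with CpG (0.87 ± 0.29) turned to -0.05 with quantile normalization and was lost without MC replicate 1 (0.69, adjusted p = 0.2) or MM replicate 2 (0.70, adjusted p = 0.18), so no direction with CpG is given. The more open region chr12:73880333-73880834, 27284 bases before the start, was lower after CpG, at 4.23 and 4.22 in CL against 5.08 and 4.86 in ML (-0.75 ± 0.15), and 4.04 and 4.30 in CT against 4.94 and 4.81 in MT (-0.71 ± 0.15). Egln3 encodes a prolyl hydroxylase that marks HIF-1α for destruction. Its region chr12:54191937-54192438, inside the gene, held 5.07 and 4.92 in MM, 4.36 and 4.29 in MP (-0.67 ± 0.21), and 4.34 and 3.98 in PL (-0.78 ± 0.17 against ML). The first of these calls was lost without MM replicate 1 (-0.60) and without a variance trend, and the second without PL replicate 2 (-0.60, adjusted p = 0.0508). The Egln3 start was called in none of the comparisons.

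Lower glycolysis, from Gapdh to Pkm, had 16 regions at 5 genes, and single stimuli changed few of them. Pgam1, phosphoglycerate mutase, had a region inside the gene 2172 bases after the start, chr19:41913793-41914294, at 3.76 and 3.94 in MM. It rose to 4.90 and 5.09 in MC, 4.88 and 4.58 in ML and 4.63 and 4.41 in MP (1.15 ± 0.20, 0.88 ± 0.20 and 0.67 ± 0.24). The polyI:C call was lost without MM replicate 1 (0.58), MM replicate 2 (0.76) or MP replicate 1 (0.56), with quantile normalization (0.62), with the shift to one median (0.64) and without a variance trend. Eno1, enolase, had a region inside the gene 5828 bases after the start, chr4:150242802-150243303, that fell with polyI:C, from 3.97 and 4.16 to 2.60 and 2.73 (-1.40 ± 0.26; adjusted p = 8.86e-05). The other 3 stimuli left it at 3.41 to 3.96. The Eno1 start rose with CpG by 0.40 ± 0.14, a call lost without any 1 of its 4 libraries (0.32 to 0.47) and without a variance trend.

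After polyI:C, lower glycolysis regions were called in 1 direction. In PL against ML 8 of 16 were lower and 0 higher, with a median of -0.38 (0.02 over all regions), and in PT against MT 9 were lower and 0 higher, with a median of -0.36 (0.00 over all regions; -0.69 without PT replicate 1 and -0.25 without PT replicate 2). At an unadjusted p under 0.05 the limma counts were 10 and 11, of which 0 were higher. By the same measure CL against ML gave 7, of which 0 were higher, and CT against MT gave 4, of which 1 was higher. CL and PL are set against the same ML libraries, and CT and PT against the same MT libraries, so these counts are not independent. Also by this measure ML against MM gave 4, of which 4 were higher, and MT against MM gave 1, of which 1 was higher. The part of the control levels in these counts was not tested. Shares over all regions were 22.9% called in PL against ML (9.36% lower) and 27.7% in PT against MT (12.7% lower). After quantile normalization 6 and 7 were lower, and after a shift of every library to one common median 9 and 9, with 0 higher in each. The first count was 2 without ML replicate 1, 3 without ML replicate 2, 4 without PL replicate 1 and 6 without PL replicate 2. The second was 11 without PT replicate 1, 5 without PT replicate 2 and 5 with the compared groups alone. Leaving out an MT library gave 4 (replicate 1) or 6 (replicate 2).

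Gapdh, the enzyme that opens this stretch, showed it at the region 801 bases before the start, chr6:125166324-125166825. It held 5.40 and 5.33 in ML, 4.69 and 4.76 in CL, and 4.34 and 4.72 in PL (-0.64 ± 0.15 and -0.83 ± 0.15 against ML). With TNF it held 5.31 and 5.28 in MT, 4.96 and 4.94 in CT, and 4.74 and 4.29 in PT (-0.78 ± 0.15 for PT minus MT, then -1.0 and -0.55). Both CL and PL lay below ML with no overlap, and the CL call was lost without CL replicate 1 or ML replicate 1 (-0.60 each). Pkm, pyruvate kinase, had its most open start region 495 bases before a start, chr9:59655831-59656332. It held 5.67 and 5.84 in ML, 5.27 and 5.20 in CL and 5.10 and 5.03 in PL, and 5.79 and 5.54 in MT, 4.85 and 5.47 in CT and 5.18 and 4.90 in PT. Against their controls the differences were -0.52 ± 0.16 in CL, -0.69 ± 0.16 in PL, -0.51 ± 0.16 in CT and -0.63 ± 0.16 in PT (-0.77 and -0.49), and all 4 passed the test. The CL call was lost without any 1 of its 4 libraries (-0.44 to -0.61), and the CL and CT calls without a variance trend. The CT call was lost without CT replicate 1 (-0.20) or MT replicate 1 (-0.39), and the difference was -0.82 without CT replicate 2. The PT call was lost without MT replicate 1 (-0.51, adjusted p = 0.073).

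The starts of the other enzymes moved the same way after polyI:C. Eno1 had 6.03 and 5.78 in ML and 5.35 and 5.32 in PL (-0.57 ± 0.14), and PT was -0.59 ± 0.14 against MT (-0.74 and -0.45). These calls were lost without ML replicate 1 (-0.45) and without MT replicate 1 (-0.38). Pgam1 had 6.00 and 6.07 in ML and 5.64 and 5.59 in PL (-0.42 ± 0.12), and PT was -0.35 ± 0.12 against MT (-0.44 and -0.26). The Pgam1 call in PL was lost without any 1 of its 4 libraries (-0.38 to -0.45), and that in PT without PT replicate 2 or either MT library (-0.35 each). Pgk1, phosphoglycerate kinase, had 6.12 and 6.04 in ML and 5.59 and 5.83 in PL (-0.37 ± 0.12), and its start was not called in PT against MT. The Pgk1 call was lost without ML replicate 1 (-0.33), ML replicate 2 (-0.42) or PL replicate 1 (-0.25). With quantile normalization the Pgam1 (-0.31 and -0.30) and Pgk1 (-0.27) calls were lost, as they were without a variance trend, and the Pgam1 call in PT also with the compared groups alone. In MM, with no stimulus, these starts held 5.59 and 5.54 (Eno1), 5.83 and 5.72 (Pgam1) and 5.87 and 5.80 (Pgk1). LPS alone was not called against MM at any of them, but the ML means were higher by 0.34 (Eno1), 0.26 (Pgam1) and 0.25 (Pgk1). The PL means differed from MM by -0.23, -0.16 and -0.12, so the differences from ML include the higher level in ML.

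Ldha, which makes lactate, was called lower at its start with CpG and with polyI:C. The region chr7:46845529-46846030, which holds the ACGTG matches printed above, had 5.05 and 5.29 in MM, 4.82 and 4.60 in MC, 4.81 and 4.94 in ML, 4.60 and 4.58 in MP and 4.98 and 5.00 in MT. Every library with a single stimulus lay below both MM libraries, but the differences with LPS (-0.29) and TNF (-0.18) were not called. The fall passed the test with CpG (-0.46 ± 0.15) and polyI:C (-0.58 ± 0.19), and both calls were lost without MM replicate 2 (-0.34 and -0.46), the first also without MC replicate 2 (-0.35) and the second without a variance trend. PT, at 4.66 and 4.31, was -0.50 ± 0.15 against MT (-0.67 and -0.33), a call lost without PT replicate 2 (adjusted p = 0.18) or either MT library (-0.51 and -0.49) and with the compared groups alone. The distal region 6811 bases before the start, chr7:46838743-46839244, was lower in CL (3.53 and 2.96) than in ML (4.02 and 4.07), at -0.80 ± 0.19 (-0.51 without CL replicate 2, adjusted p = 0.142).

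**Figure D5:**
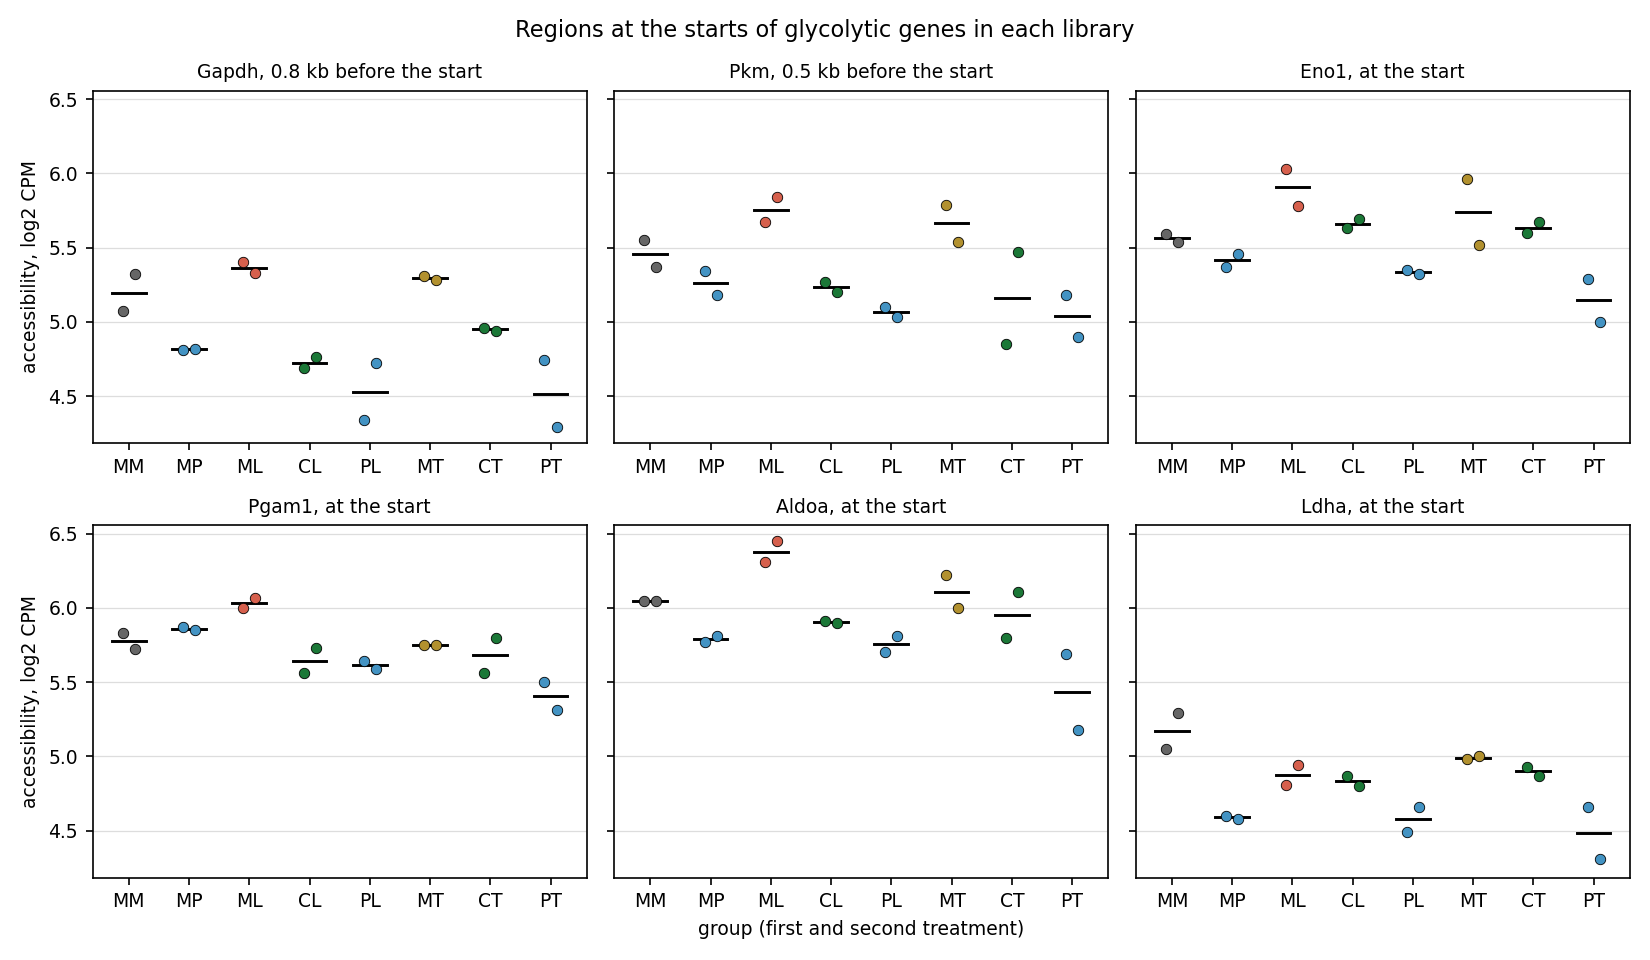
Accessibility (log2 CPM) of 6 start regions of glycolytic genes in each library of 8 groups; points are libraries and lines group means. In all 6 panels the PL mean is below the ML mean and the PT mean below the MT mean. The 6 were picked by hand and all were called lower in PT against MT, so their shared direction is no test. The Pgk1 start, not shown, was not called in PT against MT.

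Pyruvate dehydrogenase and its kinases had 10 regions, and the calls were at the kinase genes. No region of the enzyme genes Pdha1, Pdhb and Dlat was called with a single stimulus or in the comparisons of a first stimulus with medium. Of the Pdk3 regions 2 of 3 were called with a single stimulus, and of the Pdk1 regions 3 of 3 after a first stimulus (46.1% of all regions). All regions of those enzyme genes were start regions, whereas Pdk1 and Pdk3 had 1 start region of 3 each. Single stimuli called 25.0% of all start regions and 47.6% of all distal ones. A difference between enzyme and kinase genes was not tested. Pdk3, a kinase that inhibits the enzyme, had a region 31311 bases before the start, chrX:93863211-93863712, that rose with polyI:C from 2.79 and 2.71 to 3.79 and 3.93 (1.11 ± 0.29). Pdk1, another of these kinases, had a distal region, chr2:71923931-71924432, at 4.43 and 4.00 in ML and 3.36 and 3.54 in CL (-0.76 ± 0.20), and at 4.25 and 4.16 in MT and 3.63 and 2.92 in PT (-0.93 ± 0.20, then -1.29 and -0.57). The CL call was lost without CL replicate 1 (-0.67) or ML replicate 1 (-0.55), and the PT call without PT replicate 2 (adjusted p = 0.059).

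Among 31 citrate cycle regions, those of Mdh1, Idh1 and Idh2 carried the 5 largest called differences. Mdh1, the malate dehydrogenase of the cytosol, had a region between genes, chr11:21550129-21550630, at 3.65 and 3.41 in MM, 4.60 and 4.86 in MC, 4.36 and 4.27 in ML, 4.47 and 4.43 in MP, and 3.84 and 4.24 in MT. Rises were 1.20 ± 0.17, 0.79 ± 0.17 and 0.92 ± 0.21 with CpG, LPS and polyI:C. PL stood highest (5.20 and 5.53; 1.05 ± 0.17 above ML), and PT was 0.83 ± 0.17 above MT (0.67 and 1.00). Idh2, the NADP-dependent isocitrate dehydrogenase of mitochondria, fell with polyI:C at the region 655 bases after its start, chr7:80114445-80114946. MM held 4.22 and 3.78, MP 3.10 and 2.99, PL 3.11 and 2.56 and PT 2.93 and 2.73, which was -0.96 ± 0.26 against MM, -1.09 ± 0.21 against ML and -0.81 ± 0.21 against MT (-0.90 and -0.71). Every library that received polyI:C lay below every library that did not. Without MM replicate 1 the fall in MP was -0.74 (adjusted p = 0.081).

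Idh1, the form in the cytosol, divided the first stimuli. At chr1:65177471-65177972, inside the gene, CL held 3.47 and 3.35 and CT 3.34 and 3.64, while PL held 2.17 and 2.33 and PT 1.77 and 2.36. CL exceeded PL by 1.16 ± 0.25 and CT exceeded PT by 1.43 ± 0.25 (1.13 and 1.72). At its most open start, chr1:65178065-65178566, MM held 6.01 and 6.06 and MP 5.33 and 5.40 (-0.67 ± 0.16), and CpG gave -0.43 ± 0.13, a call lost without MC replicate 2 (-0.37) or MM replicate 2 (-0.40) and without a variance trend. The Mdh2 start was lower in PL than in ML (-0.40 ± 0.14) and in PT than in MT (-0.51 ± 0.14, then -0.78 and -0.24). The Mdh2 call in PL was lost without any 1 of its 4 libraries (-0.37 to -0.43) and with quantile normalization (-0.29), that in PT without PT replicate 2 or MT replicate 1 (-0.48) and with the compared groups alone, and both without a variance trend. Fh1, fumarate hydratase, had 1 region beside its start lower with LPS (-0.73 ± 0.20), a call lost without ML replicate 1 (-0.67) or MM replicate 1 (-0.65). No region of Cs, Idh3a, Ogdh, Sdha, Sdhc or Sdhd was called with a single stimulus or against one, and together with Pfkm, Pdha1, Pdhb and Dlat these are the 10 genes with regions but no such call.

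The 4 single stimuli were then compared with each other. The F test of limma found a difference among them at 27 of 146 members (23.9% of all regions), 5 of them start regions. Hk2, with 15 regions, had 5 of the 27. Hk1, Pfkfb3 and Pfkp, with 8, 15 and 12 regions, had 3 each. By pair, CpG and polyI:C differed at 16 members (12.7% of all regions), LPS and polyI:C at 15 (11.4%), polyI:C and TNF at 15 (12.1%) and CpG and TNF at 11 (13.8%). CpG and LPS differed at 5 members (5.66% of all regions) and LPS and TNF at 2 (4.34%). Those 2 were the first Pfkfb3 region, above, and the Pfkp region chr13:6633442-6633943 (LPS minus TNF -0.79 ± 0.18, a call lost without either ML library or MT replicate 2, at -0.77 to -0.82).

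A first stimulus was compared with medium under the same second stimulus. CpG before LPS changed 20 members (7 higher, 13 lower; 15.7% of all regions), and CpG before TNF changed 13 (9 higher, 4 lower; 16.3%). PolyI:C before LPS changed 36 (14 higher, 22 lower; 22.9% of all regions), and polyI:C before TNF 35 (13 higher, 22 lower; 27.7%). In total 60 of 146 were called in at least 1 of these (46.1% of all regions), 75 without PT replicate 1 and 53 without PT replicate 2. With libraries shifted to one median, which moved CL against ML by 0.10 log2, the split for CpG before LPS was 5 higher and 26 lower, and with quantile normalization 4 and 13. For CpG before TNF the shift gave 7 higher and 6 lower. Leaving out 1 library gave 6 to 11 calls for CpG before LPS, 18 to 23 for polyI:C before LPS and 8 to 11 for CpG before TNF. For polyI:C before TNF, 57 were called without PT replicate 1 (18 higher, 39 lower), 24 without PT replicate 2 (13 higher, 11 lower) and 21 without MT replicate 1.

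Start regions were next counted alone. In PL against ML 11 of 52 were lower (10.4% of all start regions) and 0 higher (4.30% of all), with 1 higher at an unadjusted p under 0.05. In PT against MT 12 were lower (13.7% of all start regions) and 1 higher (7.44% of all). The 11 were at Aldoa, Eno1, Gapdh, Hk2, Idh1 (2 regions), Idh2, Mdh2, Pgam1, Pgk1 and Pkm. Over all start regions the medians were -0.08 and -0.08, and over the member starts -0.18 and -0.13 (the second -0.18 and -0.08 without PT replicate 1 or 2). The count in PL was 5 without ML replicate 1, 7 without ML replicate 2 or PL replicate 2, 6 without a variance trend and 17 with the compared groups alone. In PT it was 7 without a variance trend and 5 with the compared groups alone. Without PT replicate 1 the count in PT was 18 lower, without PT replicate 2 it was 6, and without MT replicate 1 it was 3. PT replicate 2 had the lowest median over member starts, 4.91 log2 CPM, against 5.09 in PT replicate 1 and 5.00 to 5.31 in the other libraries, and its part in these falls was not tested.

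The polyI:C comparisons with LPS and with TNF use different libraries throughout. Overlap of calls over all regions was not counted, so the shares below have no baseline to be judged against. Of the 14 members higher before LPS and the 13 higher before TNF, 8 were the same (57.1% and 61.5%): regions of Aldoa, Hif1a, Hk2, Mdh1, Pfkfb3 and Pfkp (3 regions). Of the 22 lower in each, 12 were the same (54.5%), at Aldoa, Eno1 (3 regions), Gapdh, Hk1, Idh1, Idh2, Mdh2, Pgam1 and Pkm (2 regions). Without PT replicate 1 the shared regions were 9 higher (64.3% and 50.0%) and 15 lower (68.2% and 38.5%), and without PT replicate 2 they were 7 higher (50.0% and 53.8%) and 9 lower (40.9% and 81.8%). For CpG, 5 of 7 and 5 of 9 were shared among the higher ones (71.4% and 55.6%), at Hk2 (2 regions), Mdh1, Pfkfb3 and Pfkp. Among the lower, 3 of 13 and 3 of 4 were shared (23.1% and 75.0%), at Hif1a, Pfkfb4 and Pkm.

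CpG and polyI:C as first stimulus were set against each other. Before LPS they differed at 14 members (6 higher and 8 lower with CpG; 8.47% of all regions), and before TNF at 42 (27 higher, 15 lower; 32.0%). The second count was 60 without PT replicate 1, 18 without PT replicate 2 and 15 without CT replicate 2. The largest differences before TNF were at the second Pfkfb3 region, the Hif1a region 31334 bases before the start (-1.82 ± 0.31, CpG minus polyI:C; -1.78 and -1.85) and Idh1. Whether a first stimulus acted differently under LPS and under TNF was tested as a difference of differences. For CpG 0 of 146 members were called by limma (0.245% of all regions) with 14 at an unadjusted p under 0.05, and for polyI:C 0 (0.00% of all regions) with 11. The smallest adjusted p was at the first Pfkfb3 region, where the effect of CpG under LPS was lower than under TNF by -1.40 ± 0.34 (adjusted p = 0.0679), and with voom on the recovered reads it was 0.00894.

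Lists of related genes give the setting. Of 51 regions at 18 of 28 other glycolysis and gluconeogenesis genes, 22 were called with at least 1 single stimulus (43.1%; members 46 of 146; all regions 42.7%). The pentose phosphate pathway, which branches off glucose-6-phosphate, had 12 of 38 at 10 of 12 genes (31.6%). Hypoxia pathway and target genes outside glycolysis had 42 of 108 (38.9%). The other pyruvate, citrate cycle and itaconate genes had 59 of 105 (56.2%), with 35 higher and 11 lower with CpG. Acod1, which diverts the citrate cycle intermediate aconitate to itaconate, held 2.46 and 2.57 in MM at chr14:103046654-103047155, and 5.16 and 5.42 in MC, 5.26 and 5.30 in ML, 6.05 and 5.98 in MP and 4.60 and 4.71 in MT. That region rose by more than any glycolysis or citrate cycle member with polyI:C (3.50 ± 0.17) and TNF (2.14 ± 0.14), and by 2.78 ± 0.14 with CpG. Arnt2, which encodes a partner of HIF proteins, rose inside the gene at chr7:84337798-84338299 from 1.62 and 0.90 to 3.61 and 3.45 with LPS (2.27 ± 0.23).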

How the data were processed

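ATAC-seq libraries (18, in 9 groups of 2) were aligned and peaks called by the authors with MACS3 3.0.0b1, featureCounts, Bowtie2 2.2.5, Picard and SAMtools 1.9 among the tools named and mm10 (GRCm38) as the genome, per the submitters' processing notes. Their settings are not given in the sources used here. The deposited table gives log2 CPM for 53796 regions of one width; its values match whole reads with a prior of 3 reads (100% within 0.01 of a whole read), so a region with 0 reads stands at -0.695. Reads in regions were recovered from it and used only for depth, replicate checks and voom. Differences at regions with a few reads carry large counting error, which the variance trend takes in part.

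Each region was given to the nearest protein-coding RefSeq gene whose body lay within 50 kb of its midpoint. One limma 3.58.1 fit in R 4.3.3 took all 9 groups and all regions, with empirical Bayes variances and a trend on the mean level, and Benjamini-Hochberg adjustment over all regions. The MP libraries (chi-square per region 1.003, p = 0.285, over regions with 10 or more reads) entered as their mean, which left 8 residual degrees of freedom. The script was tested on simulated data. Start positions and promoter sequences came from RefSeq (GRCm38.p6). The members and the gene lists were chosen with earlier results of these data known. Regions named are the most open start region of each gene, up to 8 called regions with the largest differences in a comparison (1 per gene, libraries not overlapping), all regions of Hif1a, Hk2, Pfkfb3, Ldha, Pkm, Idh1 and Egln3, and in each related list the region of smallest p. Alternatives were quantile normalization, a shift of libraries to one median, log2(CPM + 1), a filter at the 25th percentile, variances without trend or robust, voom, both MP libraries as 2 samples, a replicate block, the compared groups alone, other assignment distances and leaving out each library.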

Additional observations from a re-analysis of the deposited data

How the results depend on the processing

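The counts of members called moved by more than 1.5 times under these settings. With quantile normalization TNF alone gave 3 (3 higher, 0 lower, against 4 and 1). With libraries shifted to one median CpG before LPS gave 31. Without a variance trend CpG before LPS gave 13, CpG against polyI:C before LPS 9 and the difference among single stimuli 17. With regions at or above the 25th percentile only, CpG alone gave 19, CpG before TNF 6 and CpG against polyI:C before LPS 8. With the compared groups alone LPS gave 36, CpG before LPS 37, polyI:C before TNF 19, CpG against polyI:C before TNF 19 and the difference among single stimuli 44. The last was also 44 with voom and 47 with both MP libraries as 2 samples. The difference of CpG effects under LPS and TNF, 0 in the main fit, was 1 with the median shift, log2(CPM + 1), voom, both MP libraries as 2 samples and the compared groups alone. CpG against polyI:C before LPS split into 6 higher and 14 lower with quantile normalization (6 and 8 in the main fit). Causes were not tested.

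Leaving out 1 library gave 17 to 18 calls for CpG, 12 to 16 for LPS, 20 to 28 for polyI:C and 4 to 5 for TNF, 6 to 11 for CpG before LPS, 18 to 23 for polyI:C before LPS, 8 to 11 for CpG before TNF, 21 to 57 for polyI:C before TNF, 6 to 7 and 15 to 60 for CpG against polyI:C before LPS and before TNF, 0 to 1 for each difference of effects, and 19 to 30 among the single stimuli. Where this left 1 library, it was assumed to vary like the other groups.

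The difference of replicate 1 and replicate 2 was correlated between groups (36 pairs of groups, correlations -0.358 to 0.242, 5 over 0.1). These values show no pairing by number common to all groups. They cannot tell whether some groups share a pairing or a batch. With the replicate block the difference among single stimuli was called at 47 members and the difference of CpG effects at 1.

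Of 187 named differences 89 were called under every alternative run. Of 1813 values that leave out no library 95 lost the call, 32 of them with quantile normalization and 35 without a variance trend, and 1 changed sign, the CpG rise of the Hif1a region 33853 bases before the start (-0.05 with quantile normalization). Of 748 values that leave out a library 231 lost the call. With 2 libraries a group, small differences at weakly open regions are beyond the precision of these data.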
